A study of Mus musculus with 36 samples.

Results

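The region described here is the chromosomal neighbourhood of Gli3 in mm9, chr13:15000000-16000000, with the gene at about 15.56 to 15.82 Mb and the limb enhancers mm1179 and hs1586 on either side of the gene's start. Its members are all peaks of acetylated lysine 27 of histone H3 (H3K27ac) that overlap this window, 591 of 732259 peaks in 18 lists, which merge into 49 of 63594 regions covered in at least 2 libraries. Each peak has a width and a score, and the score is used here as its percentile within its own list. The peaks were called by ChIP-seq from forelimbs of FVB mouse embryos at embryonic day 11.5, pooled for each library.

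The lines compared were 4 mm1179 KO libraries, 2 hs1586 KO libraries, 2 libraries each of hs72 KO, hs1262 KO, hs1467 KO and hs1603 KO, and 4 wild-type (WT) libraries, and none had received a treatment. Each KO line lacks the limb enhancer after which it is named; the deleted bases and the number of embryos per pool are not given in the sources used here. The other 4 lines kept a peak over both Gli3 enhancers in every library, as given below. Tags in the names of the lists divide the libraries into 4 sets: set 1 holds replicates 1 and 2 of mm1179 KO and WT, set 2 their replicates 3 and 4 with both hs72 KO libraries, set 3 replicate 1 and set 4 replicate 2 of hs1586, hs1262, hs1467 and hs1603 KO. No WT library is in the sets of hs1586 KO, so hs1586 KO was compared with the hs1262, hs1467 and hs1603 KO lines of the same sets. The question is what the other enhancer, the promoter and the rest of the locus do when 1 enhancer is removed.

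Gli3 encodes a zinc finger transcription factor of the Hedgehog pathway. Where Sonic hedgehog signalling is absent, as in the anterior limb bud, the protein is processed to a repressor, and its loss in mice and in people gives extra digits. Enhancers named mm or hs come from a catalogue of mouse and human elements tested in transgenic mouse embryos. H3K27ac marks active promoters and enhancers, and in pooled tissue fewer cells carrying the mark and less mark per cell cannot be told apart.

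The Gli3 promoter has the highest score of the window in all 14 libraries of sets 1, 2 and 4. All distances are given from the centre of the H3K27ac region at this promoter in mm9. They are not measured from the sequence below, whose place in mm9 was not located. The sequence is credited to RefSeq (GRCm38.p6, + strand), covers the 250 bases before the annotated start, and has its CpG dinucleotides in capitals.
Gli3 promoter: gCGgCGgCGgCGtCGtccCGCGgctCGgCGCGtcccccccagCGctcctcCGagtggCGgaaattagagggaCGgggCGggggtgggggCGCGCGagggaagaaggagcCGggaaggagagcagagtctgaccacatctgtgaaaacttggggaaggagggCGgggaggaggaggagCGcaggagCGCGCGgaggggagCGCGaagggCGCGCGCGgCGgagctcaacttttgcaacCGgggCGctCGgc
The stretch held 34 CpG dinucleotides (CG, the same letters on both strands), against a median of 6 over 32851 promoters of the same length, and 3.53% of promoters had as many. Its GC content was 72.8%, against a median of 52.4%, and 6.03% of promoters reached it. The GC box GGGCGG or its reverse complement CCGCCC, which contains a CpG, occurred 2 times, and 32.7% of promoters held at least 1. The letters of a GLI binding motif, GACCACCCA or TGGGTGGTC, were not in this stretch, and 0.225% of promoters held them.

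H3K27ac around Gli3 was extensive in every genotype. In mm1179 KO forelimbs the 1 Mb window had 50.2, 38.9, 70.8 and 94.7 kb under peaks in replicates 1 to 4, a mean of 63.6 ± 24.6 kb, against 57.0, 67.8, 75.3 and 93.2 kb in WT forelimbs, a mean of 73.3 ± 15.2 kb (SD, n = 4 each). The mm1179 KO values reached below the lowest and just above the highest WT value, so the genotypes overlapped. The totals of mm1179 KO and hs1586 KO include the region around the element that each line lacks. Around mm1179 the mean difference of mm1179 KO from WT was -5335 bp, so the totals do not describe the remaining locus alone. In hs1586 KO the covered sequence was 75.3 and 109 kb, against 96.0 and 148 kb in hs1262 KO, 91.7 and 127 kb in hs1467 KO and 102 and 112 kb in hs1603 KO. In each of these 2 sets hs1586 KO had the lowest of 4 values with full lists, with 1 library a line in each set. With equal lists of the 26550 highest-scoring peaks, hs1586 KO replicate 1 keeps all its peaks and so its 75.3 kb. The means were then 65.6 ± 13.7 kb in hs1586 KO and 70.5 ± 3.42 kb in hs1467 KO (SD, n = 2 each). Both hs1467 KO values were then below 75.3 kb, so hs1586 KO was not the lowest in set 3. Over whole lists, set 3 covered 89.58 Mb in hs1586 KO, against 93.61, 90.95 and 89.63 Mb in hs1262, hs1467 and hs1603 KO. Set 4 covered 153.6 Mb in hs1586 KO, against 166.0, 162.2 and 140.9 Mb, so over whole lists it was lowest in set 3 only. In hs72 KO the covered sequence of the window was 73.5 and 90.5 kb. Compared with the rest of the genome, the window was rich in the mark. The WT mean of 73.3 kb stood at place 337 among the 2326 windows of this size with a WT peak, whose median was 26.9 kb, and 14.4% of windows had more.

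The covered length also moved with the library set. Set 1 had 38.9 to 67.8 kb, set 2 70.8 to 94.7 kb, set 3 75.3 to 102 kb and set 4 109 to 148 kb, and the part of the set in the values of a genotype was not tested. The lists differ in length too, between 26550 peaks in hs1586 KO replicate 1 and 58753 peaks in hs1262 KO replicate 2, and they hold no read counts, so sequencing depth is unknown.

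**Figure D1:**
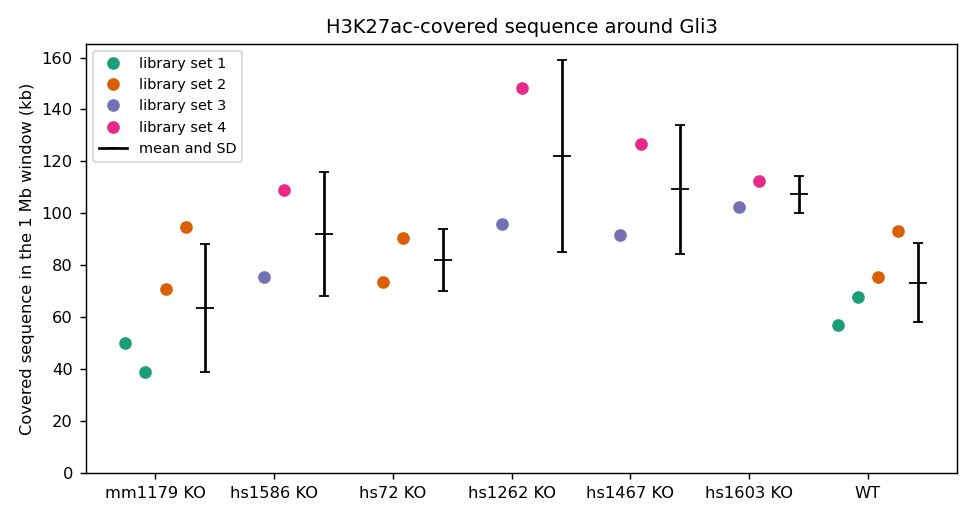
Sequence covered by H3K27ac peaks in the 1 Mb window around Gli3 (y axis, kb) in each library, by genotype (x axis); points are libraries coloured by library set, and horizontal ticks with bars give the mean and SD. The 4 mm1179 KO libraries run between 38.9 and 94.7 kb and the 4 WT libraries between 57.0 and 93.2 kb, and the highest point of each line of sets 3 and 4 is its set 4 library.

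Of the 49 regions, 14 lie before the promoter region, 29 after it up to the approximate gene end and 5 beyond the gene. Their median width was 2217 bp, with a range of 789 to 17599 bp. All 18 libraries called 9 of them (18.4%, against 16.5% of all regions), namely 3 before the promoter region, 5 within the gene span and 1 beyond it. All 4 WT libraries called 15 of the 49 (30.6%, against 36.4% of all regions), and 11 had no WT call (22.4%, against 23.5%). Calls moved with the library set, in the window as in the genome: 32 regions were called by every library of set 4 (65.3%, against 65.7% of all regions), and 17 by every library of set 3 (34.7%, against 28.6%). The region 134.4 kb before the promoter centre, the nearest neighbour of mm1179 on its far side, was called by the 4 libraries of set 4 and by no other. The region 14.8 kb after the promoter centre was called by all 10 libraries of hs1586, hs72, hs1262, hs1467 and hs1603 KO, by 1 of 4 mm1179 KO libraries and by 1 of 4 WT libraries. The map of all peaks shows this mixture of constant and variable sites.

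**Figure D2:**
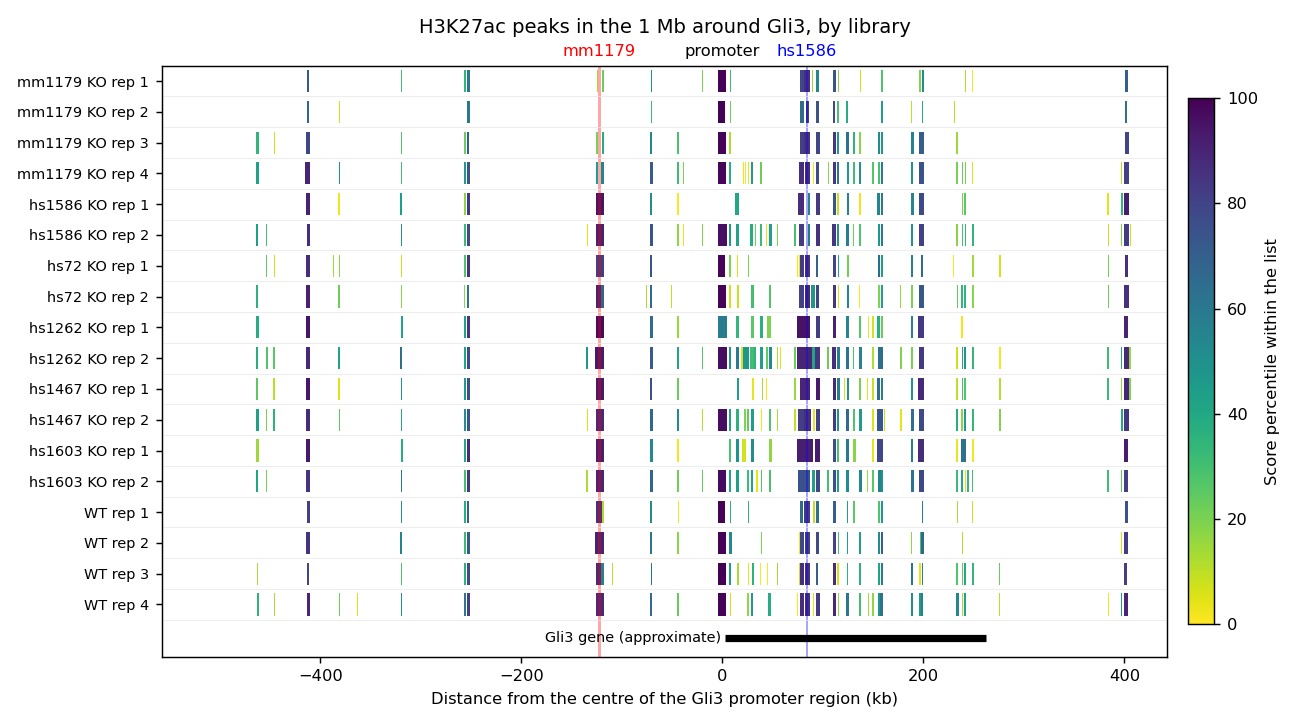
H3K27ac peaks in the 1 Mb window, 1 row per library, at their distance from the centre of the promoter region (x axis, kb); colour is the score percentile within the list, and the red and blue bands are the stretches without a peak in mm1179 KO and hs1586 KO. Peaks stand in the red band in every row except the 4 mm1179 KO rows, and in the blue band in every row except the 2 hs1586 KO rows, and the promoter column at 0 is missing in 3 rows.

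The mm1179 element was checked first, since it is what the mm1179 line lacks. It lies in a region of 8522 bp at chr13:15431354-15439875, before the gene, centred 122.0 kb from the promoter centre. Inside it, the bases 15433947 to 15436908 (2962 bp) had no peak in any mm1179 KO library and a peak in each of the other 14 libraries. Of the 33 such stretches that mm1179 KO had in the whole genome it was the longest, and the next had 1243 bp. In all, 3 of them, 3401 bp together, lay in the Gli3 window, and hs72, hs1262, hs1467 and hs1603 KO and WT had 0 stretches of their own there.

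The mark was not lost over the whole region. On the far side of the gap, away from the gene, mm1179 KO replicates 1, 3 and 4 kept peaks of 1322, 1628 and 1769 bp at the 15.04, 20.2 and 44.3 percentiles of their lists. On the side towards the gene the same libraries kept peaks of 1268, 1582 and 2686 bp at the 22.8, 37.6 and 54.4 percentiles. Replicate 2, the shortest mm1179 KO list with 30719 peaks, had no peak in the region. In WT a peak ran across the gap at the 86.1, 90.1, 87.9 and 88.0 percentiles, with widths of 6020, 8205, 5213 and 8336 bp. WT replicates 1 and 3 also had a separate peak on the side towards the gene, of 1511 and 2343 bp at the 13.3 and 55.5 percentiles. The percentiles of the mm1179 KO peaks on that side lay between those of these separate WT peaks, but the widths of 1268 and 2686 bp did not. In WT replicates 2 and 4 that side was part of the peak across the gap.

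Over the whole region, peaks covered 2590, 0, 3210 and 4455 bp in mm1179 KO replicates 1 to 4, against 7531, 8171, 7556 and 8336 bp in WT replicates 1 to 4. The mean was 2564 ± 1877 bp in mm1179 KO and 7899 ± 416 bp in WT (SD, n = 4 each), a difference of -5335 bp, with -6556 bp in set 1 and -4114 bp in set 2. Every mm1179 KO library was below every WT library, as in 0.287% of the 44933 regions tested (0.768% had every mm1179 KO library above). The exact two-sided permutation p was 0.0286, the smallest that 4 against 4 allows, and after Benjamini-Hochberg adjustment over all regions it was 1, as for every region, so this test called 0. At an unadjusted p under 0.05 it had 474 regions.

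The rank of the region could be tested with limma only without replicate 2, which has no peak there. Ranks for this test were taken among the regions called by every library compared, on a scale of 0 to 100. The mean rank was then 11.0 in the 3 mm1179 KO libraries, against 79.0 in the 4 WT libraries, a difference of -68.0 points (SE 3.70, 95% interval -76.8 to -59.2, limma adjusted p 0.00921). It was the only region called among 21355, which makes 0.00468%. With the replicate number as a block the same libraries gave -66.6 points (SE 3.98) and a limma adjusted p of 0.631, and 0 regions were called, so the call is lost when the libraries are paired. The region was named from its gap in these libraries, so neither test is independent of how it was found.

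**Figure D3:**
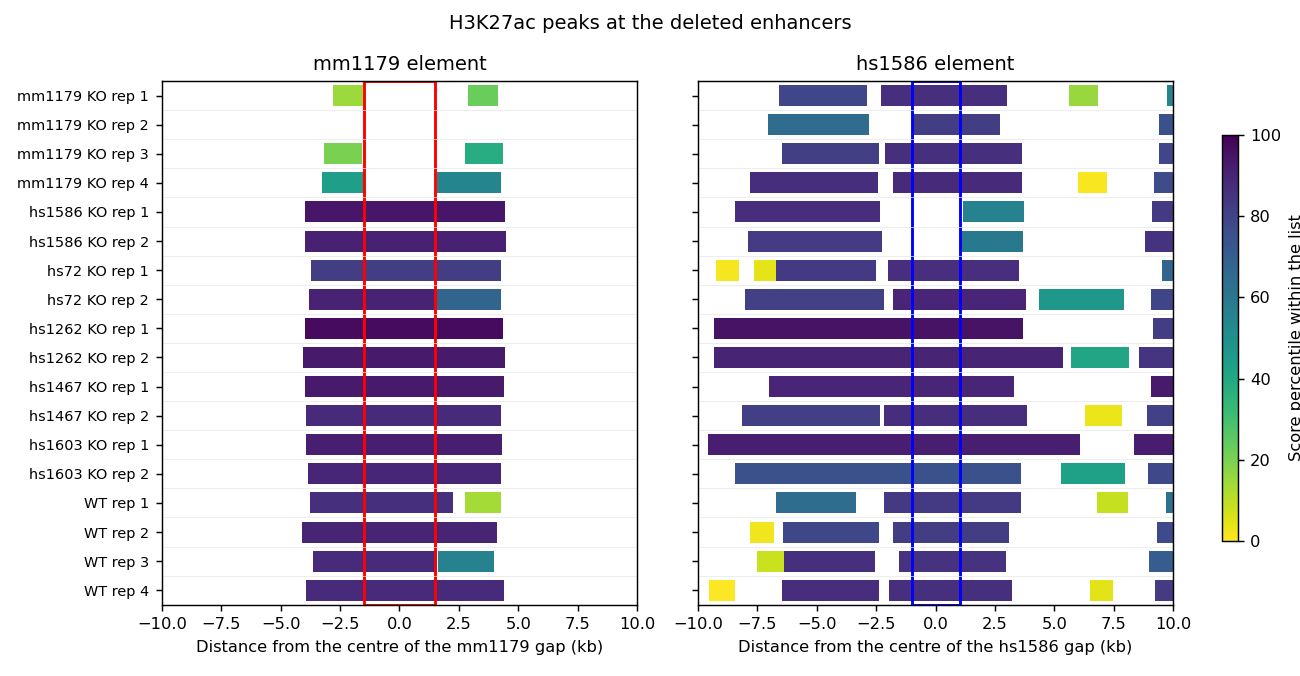
Peaks within 10 kb of the mm1179 gap (left) and the hs1586 gap (right), 1 row per library; the x axis is the distance from the centre of the gap in kb, colour is the score percentile within the list, and outlined boxes mark the gaps of 2962 bp and 2026 bp. The mm1179 KO rows hold short flanks or nothing beside the left box, and the hs1586 KO rows keep a high-ranking peak left of the right box and a lower one right of it.

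With mm1179 gone, the hs1586 element kept its peak in every mm1179 KO library. Peaks across the hs1586 gap stood at the 86.5, 82.3, 86.2 and 88.1 percentiles in mm1179 KO, against 83.0, 82.1, 85.7 and 86.1 in WT, and their widths were 5305, 3709, 5770 and 5444 bp in mm1179 KO, against 5753, 4892, 4517 and 5177 bp in WT. The ranges of the genotypes overlapped in both measures. The hs1586 region as a whole, chr13:15631912-15649510, is the widest of the window, 17599 bp, and is centred 83.1 kb after the promoter centre, inside the approximate span of the gene. It had 10197, 7943, 9863 and 12032 bp under peaks in mm1179 KO and 10401, 9925, 9494 and 11297 bp in WT. The means were 10009 ± 1675 bp in mm1179 KO and 10279 ± 773 bp in WT (SD, n = 4 each), a difference of -270.5 bp with an exact permutation p of 0.857. With peaks of a score of at least 100 the difference was 479 bp, in the other direction.

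By rank the hs1586 region of mm1179 KO was 3.40 points above WT (SE 2.59, 95% interval -2.60 to 9.39, limma adjusted p 0.999). Within set 1 the difference was 6.15 points and within set 2 it was 0.64 points. The test does not show that the ranks were alike, and values outside the interval of -2.60 to 9.39 points are those it leaves out.

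The hs1586 line showed the reciprocal pattern. The bases 15640413 to 15642438 (2026 bp) had no peak in either hs1586 KO library and a peak in each of the other 16 libraries, and this was the 1 such stretch of hs1586 KO in the whole genome. Before the gap, replicates 1 and 2 of hs1586 KO kept peaks of 6097 and 5611 bp at the 87.3 and 82.5 percentiles. After the gap they kept peaks of 2532 and 2665 bp at the 55.8 and 59.4 percentiles. The peaks before the gap ended at 15639086 and 15639152, and those after it began at 15642600 and 15642439, so the stretch without a peak in hs1586 KO itself was longer than the gap. The start of the gap is set by a narrow peak of mm1179 KO replicate 2, which begins at 15640413. A gap thus need not have the bounds of the deletion, and the region stayed acetylated to either side.

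In the other lines the acetylated block around hs1586 was either continuous or split just before the element. A single peak ran through it in hs1262 KO (12991 and 14700 bp), in hs1603 KO (15657 and 12049 bp) and in replicate 1 of hs1467 KO (10292 bp). In hs1467 KO replicate 2, hs72 KO, mm1179 KO and WT, a peak before the gap was separate from the peak across it. In covered bases the region had 8629 and 8276 bp in hs1586 KO, against 12991 and 17076 bp in hs1262 KO, 10292 and 13421 bp in hs1467 KO and 15587 and 14753 bp in hs1603 KO. Both hs1586 KO values were below all 6 of these, in a region that was named from the gap. The share of all regions with such a place was not counted, so this is a description. The value of mm1179 KO replicate 2, given above for the same region, was lower than both.

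The rank of the region, which takes its highest peak, was 4.95 points lower in hs1586 KO than in the hs1262, hs1467 and hs1603 KO lines (SE 6.13, 95% interval -19.3 to 9.40, limma adjusted p 0.966). The highest peak of hs1586 KO is the one before the gap, so this value describes the flank and not the deleted bases. With regions covered in at least 9 libraries this stretch is split, and the piece that holds the gap (chr13:15639286-15645055) had a mean rank of 36.7 in hs1586 KO, against 82.8 in the sister lines. The difference was -46.1 points (SE 6.10, 95% interval -60.4 to -31.8, limma adjusted p 0.672), with -46.4 points in set 3 and -45.8 points in set 4. The piece before it (chr13:15633631-15639075) gave -3.69 points (SE 5.93). These pieces too were named from the gap.

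With hs1586 gone, the mm1179 element kept a wide peak. It was 8405 and 8450 bp wide in hs1586 KO replicates 1 and 2, against 8335 and 8521 bp in hs1262 KO, 8371 and 8228 bp in hs1467 KO and 8253 and 8149 bp in hs1603 KO. The percentiles were 94.4 and 90.7 in hs1586 KO, against 96.9 and 93.3 in hs1262 KO, 93.2 and 88.2 in hs1467 KO and 91.5 and 89.1 in hs1603 KO. By percentile, hs1586 KO stood within each set between its sister lines. By rank the mm1179 region of hs1586 KO was 0.51 points above the sister lines (SE 3.99, 95% interval -8.82 to 9.85, limma adjusted p 0.995), with 1.56 points in set 3 and -0.54 points in set 4.

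**Figure D4:**
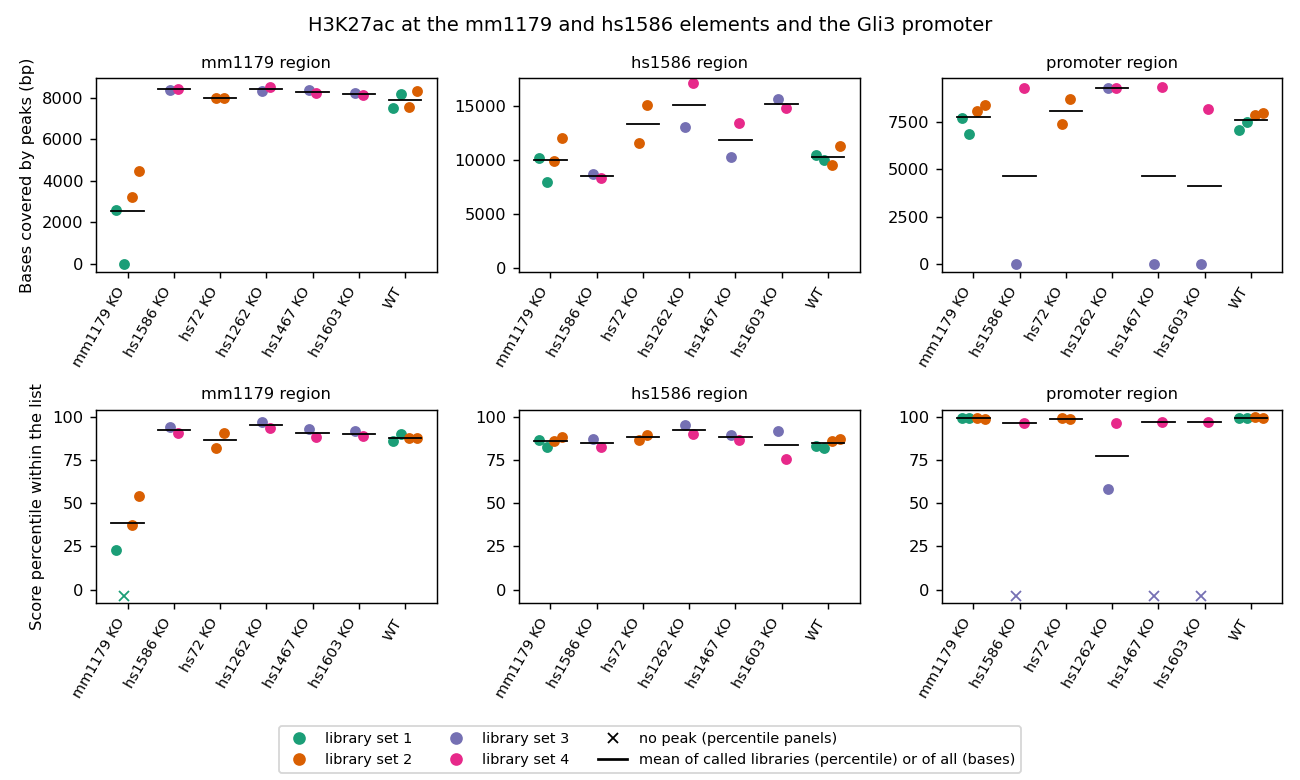
Bases covered by peaks (top, bp) and score percentile within the list (bottom) at the mm1179 region, the hs1586 region and the promoter region for each library, by genotype; points are libraries coloured by library set, crosses mark libraries without a peak, and lines are means. At the mm1179 region the mm1179 KO points lie between 0 and 4455 bp and the WT points between 7531 and 8336 bp, while at the promoter the low points and crosses are all of library set 3.

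The Gli3 promoter was acetylated at the top of the list in mm1179 KO and in WT. The promoter region, chr13:15552885-15562275, is 9391 bp wide. Its peak had a score of 3100 in all 4 mm1179 KO libraries, against 3100 in WT replicates 1, 2 and 4 and 3127 in WT replicate 3. A score of 3100 or above was held by 313 to 1278 peaks of each mm1179 KO list and 421 to 709 peaks of each WT list. Peaks with the score of 3100 are tied, as at a ceiling, so differences of the mark among them would not show in the rank. Scores above 3100 did occur and did show. At the promoter region the rank of WT replicate 3 was 99.9, against 98.1 to 98.4 in the other WT libraries. The percentiles were 99.2, 99.5, 99.1 and 98.5 in mm1179 KO and 99.1, 99.1, 99.9 and 99.2 in WT. By rank the difference was -0.56 points (SE 2.25, 95% interval -5.75 to 4.64, limma adjusted p 0.999).

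Width is not bound by that ceiling. The promoter peak was 7698, 6871, 8042 and 8370 bp wide in mm1179 KO, against 7055, 7501, 7866 and 7939 bp in WT. The mean covered length was 7745 ± 644 bp in mm1179 KO and 7590 ± 405 bp in WT (SD, n = 4 each), a difference of 155 bp with an exact permutation p of 0.714. In set 1 the difference was 6.50 bp and in set 2 it was 303.5 bp. The sign turned when mm1179 KO replicate 4 (-53.2 bp) or WT replicate 1 (-23.4 bp) was left out, and with regions covered in at least 9 libraries (-33.0 bp).

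In hs1586 KO the promoter gave 2 unlike values. Replicate 2 had a peak of 9256 bp with the score of 3100, against widths of 9259 bp in hs1262 KO, 9300 bp in hs1467 KO and 8184 bp in hs1603 KO of the same set, all at 3100. Replicate 1 had no peak at the promoter, and replicates 1 of hs1467 KO and hs1603 KO, of the same set 3, had none either. The fourth library of that set, hs1262 KO replicate 1, had a peak of 9515 bp with a score of 129, at the 58.2 percentile. The missing promoter peak was thus shared by 3 lines of set 3, and the 14 libraries of the other sets all had the score of 3100 or above. No rank test of the promoter could be made with both hs1586 KO libraries, since replicate 1 had no peak there.

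Calls missing from set 3 were found elsewhere in the genome too. Of 250 regions with a score of 3100 or more in all 14 libraries of the other sets, 57.2% were called by all 4 libraries of set 3, 40.4% by some of them and 2.40% by none. The set 3 lists had 1 to 66 peaks at 3100 or above, against 3201 to 3835 in set 4. Over the Gli3 window, 11 regions were called by all 14 libraries of sets 1, 2 and 4, and 9 of these by all of set 3 as well (81.8%, against 55.2% of the 19031 such regions of the genome). The other two were the promoter region and its neighbour 8.0 kb after the promoter centre, which hs1586, hs1262 and hs1467 KO replicate 1 lacked and hs1603 KO replicate 1 had at the 29.1 percentile. Both Gli3 enhancers were called at high rank in these same libraries, outside the deleted bases.

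The rest of the locus was then compared between mm1179 KO and WT. Across the genome, 0 of 19485 regions called in all 8 libraries passed an adjusted p of 0.05 in limma (0%), while 965 had an unadjusted p under 0.05. In the window 11 regions could be tested, 0 passed and 2 had an unadjusted p under 0.05. Of the 11, 9 had a lower and 2 a higher mean rank in mm1179 KO, with a median difference of -6.47 points, against a median of -0.11 points over all regions, of which 50.9% were below 0. The window median was -2.85 points without mm1179 KO replicate 1 and -3.47 points without WT replicate 2. It was -2.91 points at a score of at least 100, -2.37 points with equal lists of the 26550 highest-scoring peaks and -4.19 points with regions covered in at least 9 libraries. On the log2 score scale 7 of 11 regions were below 0, against 41.8% of all regions. The members share their libraries, so this count is a description.

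The region 402.1 kb after the promoter centre (chr13:15957225-15962226) had ranks of 47.0, 45.0, 62.3 and 56.0 in mm1179 KO, against 56.8, 66.4, 65.6 and 77.3 in WT. The groups overlapped, and the difference was -14.0 points (SE 5.52, limma adjusted p 0.960). Within the gene span, the region 157.1 kb after the promoter centre (chr13:15711834-15717575) had ranks of 4.99, 22.4, 19.8 and 15.7 in mm1179 KO, against 17.3, 45.5, 26.0 and 24.5 in WT. These overlapped too, with a difference of -12.6 points (SE 6.60, 95% interval -27.8 to 2.65, limma adjusted p 0.999), -17.7 in set 1 and -7.48 in set 2. The region 252.5 kb before the promoter centre (chr13:15303538-15306543) had ranks of 33.0, 40.7, 47.5 and 44.3 in mm1179 KO, against 49.3, 49.8, 58.1 and 59.8 in WT. The difference was -12.9 points (SE 4.21, 95% interval -22.6 to -3.13, limma adjusted p 0.887), with -12.6 points in set 1 and -13.1 points in set 2. It was the 1 tested region of the window in which every mm1179 KO library was below every WT library, as in 1.47% of the regions tested, and in 0 of the window was every one above, as in 1.33%. In covered bases it had 2225, 2296, 2211 and 2433 bp in mm1179 KO, against 2201, 2478, 2589 and 2839 bp in WT, and these overlapped.

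Higher mean ranks were found at the hs1586 region, given above, and 197.8 kb after the promoter centre (chr13:15752558-15758134). There mm1179 KO had ranks of 21.3, 17.5, 46.9 and 43.9, against 30.8, 39.5, 22.2 and 16.8 in WT. The difference of 5.09 points (SE 8.17, limma adjusted p 0.999) joined -15.7 points in set 1 and 25.9 points in set 2, so the sets went opposite ways.

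The tested regions nearest to hs1586 within the gene changed sign with single libraries. At 94.9 kb after the promoter centre the within-list percentiles were 55.0, 75.3, 79.3 and 77.0 in mm1179 KO, against 63.0, 77.4, 71.1 and 82.8 in WT, and the rank difference was -1.46 points (SE 9.54). Without mm1179 KO replicate 1, the low library, it was 6.75 points. At 111.4 kb the percentiles were 74.5, 77.7, 84.3 and 83.7 in mm1179 KO, against 70.8, 80.2, 87.0 and 88.5 in WT, a rank difference of -1.76 points (SE 6.56) that also turned when mm1179 KO replicate 1 was left out (1.37 points).

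Before the gene, the region at 412.4 kb had percentiles of 72.0, 67.9, 78.6 and 89.9 in mm1179 KO, against 80.9, 84.6, 79.9 and 89.5 in WT. Its rank difference was -9.09 points (SE 6.39), of which set 1 gave -17.4 and set 2 -0.80. At 70.3 kb, between mm1179 and the promoter, mm1179 KO had 48.8, 32.5, 53.9 and 71.5, against 52.7, 60.9, 63.0 and 65.3 in WT, a rank difference of -6.57 points (SE 5.41). Both differences were larger in set 1, which holds replicates 1 and 2 of mm1179 KO and WT, than in set 2.

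**Figure D5:**
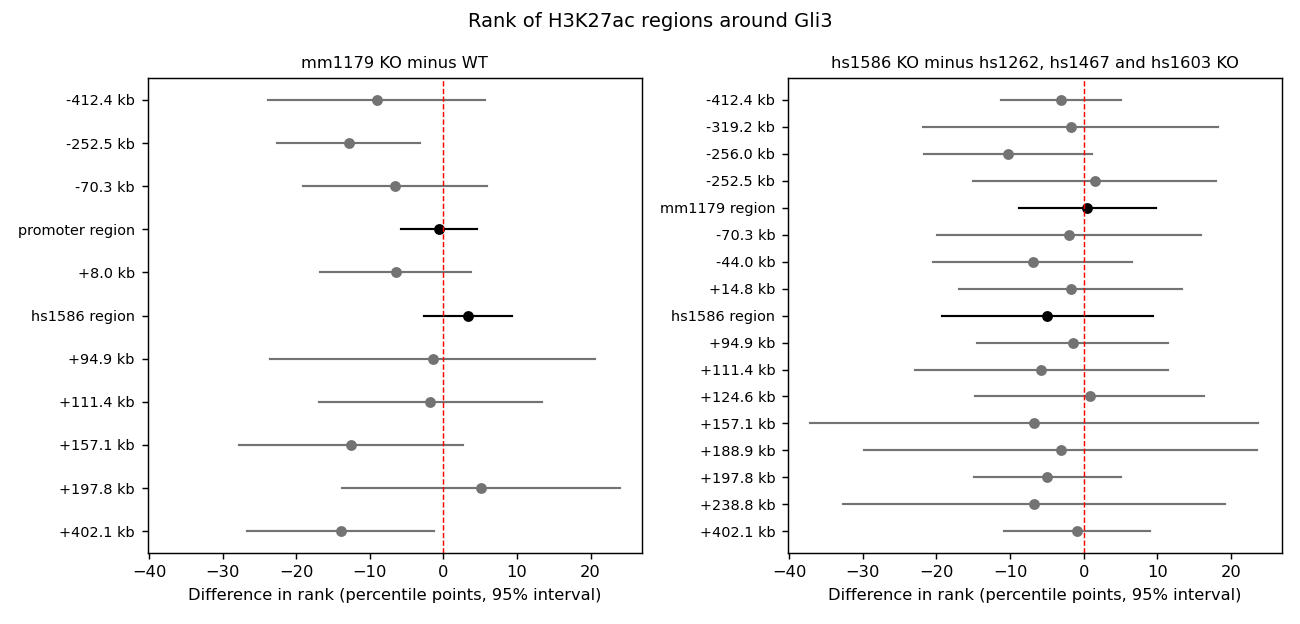
Difference in rank (x axis, percentile points with 95% intervals from limma) of each testable region of the window, ordered along the chromosome from top to bottom and labelled by distance from the promoter centre: mm1179 KO minus WT on the left, hs1586 KO minus the hs1262, hs1467 and hs1603 KO lines on the right. No region passed the adjusted threshold; on the left 9 of 11 points are below 0 and on the right 14 of 17.

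Covered bases were counted in the same way. Of 35 regions of the window called in at least 2 of the 8 libraries, 22 had fewer and 13 more covered bases in mm1179 KO than in WT (62.9% lower, against 41.7% of all regions). The median difference was -161 bp in the window, against 58 bp over all regions. The count turned between the library sets, with 22 regions lower and 8 higher in set 1 and 15 lower and 20 higher in set 2. No region of the window was called by all 4 WT libraries and no mm1179 KO library, as 0.0769% of the 54583 regions called in these libraries were. None was called by all 4 mm1179 KO libraries and no WT library, as 0.0348% were. The lists held 30719 to 45267 peaks in mm1179 KO and 36281 to 44647 peaks in WT, and the part of list length in these counts was not tested.

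In hs1586 KO, set against the sister lines, limma called 0 of 17850 regions (0%), with 878 at an unadjusted p under 0.05. In the window 17 regions could be tested and 0 had an unadjusted p under 0.05. The mean rank was lower in 14 and higher in 3, with a median difference of -3.07 points, against 0.35 points over all regions, of which 48.0% were below 0. Without hs1586 KO replicate 2, 9 of 17 regions were below 0, against 45.8% of all regions. Without its replicate 1, 15 of 20 were, against 51.9%. On the log2 score scale 17 of 17 were below 0, against 58.4% of all regions. No region of the window had both hs1586 KO libraries below or above all 6 others, as 3.2% of regions had below and 2.18% above. Set by set, hs1586 KO was the lowest of the 4 lines in both sets in 2 of the 17 regions, as in 7.51% of all regions tested, and the highest in both in 0, as in 5.83%.

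Those 2 regions had intervals that include 0. The region 256.0 kb before the promoter centre (chr13:15300436-15302664) had ranks of 7.19 and 4.68 in hs1586 KO, against 24.9 and 7.63 in hs1262 KO, 21.4 and 18.4 in hs1467 KO and 20.1 and 5.10 in hs1603 KO, a difference of -10.3 points (SE 4.88, limma adjusted p 0.933). The region 44.0 kb before the promoter centre, absent from both hs72 KO libraries, had ranks of 0.22 and 1.02 in hs1586 KO, against 5.29 and 8.27 in hs1262 KO, 6.11 and 22.6 in hs1467 KO and 0.33 and 2.58 in hs1603 KO, a difference of -6.92 points (SE 5.77). The 3 higher means were those of the mm1179 region, the region at 252.5 kb before the promoter centre (1.50 points, SE 7.04) and the region at 124.6 kb after it (0.80 points, SE 6.66). At the 252.5 kb site, where mm1179 KO ranked below WT, hs1586 KO had within-list percentiles of 84.7 and 78.5, against 84.6 and 77.6 in hs1262 KO, 75.9 and 74.8 in hs1467 KO and 88.0 and 83.8 in hs1603 KO. The 2 comparisons share no library.

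In set 3 alone, hs1586 KO was the lowest of the 4 lines in 6 of the 17 regions, against 25.8% of all regions tested. In set 4 it was the lowest in 4, against 30.1%. It was the highest in 2 of the 17 in set 3 and in 2 in set 4, against 28.0% and 22.7% of all regions. The 6 include the region 412.4 kb before the promoter centre, where the set 3 rank was 86.7 in hs1586 KO, against 92.3, 89.8 and 90.5 in hs1262, hs1467 and hs1603 KO. At 111.4 kb after it the set 3 rank was 63.6 in hs1586 KO, against 86.6, 81.0 and 65.4, and at 197.8 kb it was 69.5, against 75.3, 81.0 and 81.6. In set 4 hs1586 KO stood between its sister lines at these 3 places. At 94.9 kb, the next region after hs1586, the percentiles were 82.8 and 85.4 in hs1586 KO, against 82.2 and 84.6 in hs1262 KO, 93.2 and 81.2 in hs1467 KO and 92.6 and 78.4 in hs1603 KO (-1.51 points of rank, SE 5.57). At 402.1 kb they were 91.5 and 82.3 in hs1586 KO, against 89.6 and 88.0, 89.1 and 83.6, and 92.2 and 80.6 in hs1262, hs1467 and hs1603 KO (-0.90 points, SE 4.24). With 2 libraries of hs1586 KO the intervals of the 17 regions were wide, as at the region 157.1 kb after the promoter centre, where the interval ran from -37.2 to 23.7 points.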

How the data were processed

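H3K27ac ChIP-seq peak lists of 18 libraries were used, and the 18 input samples were not used here. Per the submitters' processing notes, MACS 1.4.2 was among the tools, the build was mm9, and Bowtie 0.12.8, cutadapt 1.1, bcl2fastq 2.17 and CASAVA are also named; whether the inputs took part in peak calling is not given in the sources used here. A deposited list holds the position of each peak with the authors' score, here between 40 and 3233, and scores served for ranks inside a list and for a minimum. No list holds read counts, so depth is unknown and a missing peak is a call not made. Long lists can hold more and wider peaks. Coordinates are 1-based.

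Regions were bases covered in at least 2 libraries, called by a library with 1 bp of overlap. A gap was a run of bases without a peak in any library of a line and with one in every other library. Ranks were percentiles of the highest score of a region among regions called by all libraries of a comparison. They were tested with limma 3.58.1 (R 4.3.3) over all such regions, for mm1179 KO against WT (4 and 4) and for hs1586 KO against hs1262, hs1467 and hs1603 KO with the library set as a term (2 and 6), with Benjamini-Hochberg adjustment and a threshold of 0.05. Covered bases were tested by exact permutation. Libraries are of pooled forelimbs, and p-values measure the spread between libraries, which may be technical. The library sets were read from tags in the list names, whose meaning the labels do not give.

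Replicate numbers of mm1179 KO and WT share a library set, and deviations from the group means over 19485 regions correlated with r of 0.32, 0.16, 0.20 and 0.43 for equal numbers. For unequal numbers of the same set r was 0.22, 0.42, 0.42 and 0.22, so equal numbers did not stand out within their set. Named in full were the regions of the 2 longest gaps, the promoter region (the region nearest to the start of Gli3 and, within 10 kb, of the highest WT percentile), the 6 others with the highest WT percentile, and the 2 largest rank differences in each direction of each comparison. Other regions named were chosen after their values were seen. The members and lists were chosen with earlier results of these data known. Alternatives were a minimum score of 100, equal lists of 26550 peaks, regions covered in at least 9 libraries, log2 scores, 90% of the other libraries for gaps, 50% of a region covered, replicate blocks, library sets as a term, arrangements within sets and leaving out libraries; leaving out set 3 for the gaps, and the block without mm1179 KO replicate 2, were added after seeing the data. Procedures were tested on simulated data. No mm9 genome or annotation was at hand, so exons, introns, enhancer sequences, limb marker genes and other Hedgehog genes were not analysed here. Gene order came from GRCm38.p6, where the nearest protein-coding genes are AW209491 before and Inhba after Gli3. Python 3.11.15, numpy 2.4.6, pandas 2.3.3, scipy 1.17.1 and matplotlib 3.10.9 were used.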

Additional observations from a re-analysis of the deposited data

Results flagged for a closer look

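In 57 groups of 4 libraries, checked for a highest or lowest library far from the other 3, 3 stood out, and chance gives about 1 in 20. In the region 256.0 kb before the promoter centre, mm1179 KO replicate 2 had 0 bases under peaks and the other 3 mm1179 KO libraries had 1660 to 1897 bp. In the region 94.9 kb after it, mm1179 KO replicate 1 stood at the 55.0 percentile and the others at 75.3 to 79.3. At the promoter region WT replicate 3 stood at the 99.9 percentile and the other WT libraries at 99.1 to 99.2; it is the library whose promoter score lies above 3100.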

How the results depend on the processing

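Of 382 alternative values, 320 counted as the same, 35 changed sign and 27 moved. Covered kb moved if the change exceeded the spread between libraries. Counts, gap lengths and window medians of rank difference moved if they changed by over 1.5 times. A tested difference counted as the same if it kept its sign and call, whatever its size. The hs1586 region of hs1586 KO is among these, with -4.95 points and, with regions covered in at least 9 libraries, -46.1 points. The gap of mm1179 KO kept its place with 2962 to 3057 bp and that of hs1586 KO with 2026 to 2553 bp under every alternative, the one without library set 3 included. With the replicate block, limma called 0 regions for mm1179 KO (1436 at an unadjusted p under 0.05), as without it, while the 1 region called without mm1179 KO replicate 2 became 0 under the block (1646 at an unadjusted p under 0.05), an alternative added after seeing the data. The exact test of covered bases within replicate numbers cannot go below 0.125 and shows nothing. Without the library set as a term, 0 regions were called for hs1586 KO. Leaving out 1 library gave 0 to 1 called regions for mm1179 KO (1 without mm1179 KO replicate 2) and 0 to 51 for hs1586 KO (51 without its replicate 2, none in the Gli3 window, with the remaining hs1586 KO library assumed to vary like the other lines), and regions covered in at least 9 libraries gave 2. The 61 regions called by every library of one genotype and none of the other, mm1179 KO or WT, became 27 at a score of at least 100 and 134 to 221 without 1 library.

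Mean covered kb of the window at a score of at least 100 were 68.0 in hs1586 KO, 55.2 in hs72 KO, 77.6 in hs1467 KO, 79.3 in hs1603 KO and 54.0 in WT. With equal lists they were 65.6 in hs1586 KO, 55.2 in hs72 KO, 84.2 in hs1262 KO, 70.5 in hs1467 KO and 83.5 in hs1603 KO.

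All changes of sign were in differences that passed no test, and their cause was not tested. For mm1179 KO minus WT, covered bases of the hs1586 region became 479 bp at a score of at least 100 and with equal lists, and ran between -945 and 418 bp with 1 library left out. Those of the promoter became -33.0 bp with regions of at least 9 libraries and ran between -53.2 and 446 bp. The rank difference at 94.9 kb became 0.24 points (score of at least 100) and 0.058 on the log2 score scale, and ran between -6.09 and 6.75 with 1 library left out. That at 111.4 kb became 0.0026 on the log2 score scale and ran between -7.06 and 1.47.

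For hs1586 KO, changes on the log2 score scale gave -0.069 at 252.5 kb before the promoter centre, -0.11 at the mm1179 region and -0.075 at 124.6 kb after it. Equal lists gave 0.36 points at 70.3 kb before it, and a score of at least 100 gave -1.45 points at 124.6 kb. With 1 library of hs1586 KO left out, or that replicate number of all 4 lines, the values ran between -1.74 and 4.90 at 252.5 kb before the promoter, -0.50 and 1.56 at the mm1179 region, -12.5 and 8.07 at 70.3 kb before it, -7.83 and 5.10 at 94.9 kb, -14.0 and 2.95 at 111.4 kb, -5.67 and 7.22 at 124.6 kb, -9.72 and 1.02 at 197.8 kb, and -4.36 and 2.88 at 402.1 kb.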
